A study of Cricetulus griseus with 19 samples.

Results

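Adenosine kinase (Adk), adenylosuccinate synthase 2 (Adss2) and thymidine kinase 1 (Tk1) are enzymes of nucleotide metabolism. They were described in RNA from Paradaux cells, a line built on CHO-K1, which is an ovary-derived line of the Chinese hamster, Cricetulus griseus. The enzymes were taken as the transcript targets whose RefSeq accession carries their hamster symbol. Each symbol matched 1 target, so 3 of the 46718 targets in the files were followed, out of 330 protein-coding symbols that could be named at all. The 19 libraries came from 7 cultures under paradoxical feedback, 7 under negative feedback, 4 with uncontrolled growth, and 1 library of the parental cells. As background, a population circuit with negative feedback has cells limit their own number through a signal they make, and in a paradoxical circuit that signal promotes both division and death. The labels name the conditions, but not the agents, doses or length of culture, nor whether the numbered cultures were kept apart throughout, so p-values reflect only the spread among these samples, which may in part be technical. Cells were harvested after 2 days of growth below confluence. The target of an inserted construct was detected in all 19 libraries, the parental one included, at 1302 to 2267 CPM of the library total.

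Cells obtain nucleotides by building them from small precursors and by salvaging nucleosides. Adenosine kinase salvages adenosine by phosphorylating it to AMP, and it thereby also removes the adenosine that methylation reactions release. Adenylosuccinate synthase joins IMP and aspartate in the first step from IMP to AMP, and adenylosuccinate lyase (Adsl) releases AMP in the next. Thymidine kinase 1 is the cytosolic enzyme that phosphorylates thymidine to dTMP, a precursor needed for DNA, and in mammalian cells it is made mainly around S phase. None of the 3 is itself an enzyme of folate metabolism, which supplies one-carbon units for purine and dTMP synthesis.

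The libraries held 9.91 to 13.2 M estimated counts in total, and the members were well covered, with 224 to 1886 estimated counts each per library. Counting error alone was therefore at most 6.68% of a value. The negative feedback cultures did not form 1 group. On the first principal component of log2 CPM, cultures 1 and 2 lay at -161 and -141, within the uncontrolled cultures at -169 to -122, and cultures 3 to 7 lay at 158 to 221. These sets also differed in the share of counts on targets under 800 nt, which was 14.1 and 13.3% in negative feedback cultures 1 and 2 and 6.12 to 7.22% in cultures 3 to 7. That share was 8.50 to 12.4% under paradoxical feedback, 12.2 to 13.4% in uncontrolled cultures and 11.8% in the parental library. The symbols fixed to check the cell type (Vim, Krt18, Lgals1, Epcam, Ptprc and Pecam1) matched no target, so the labelled line was not checked by markers. In bulk RNA, more cells in a given phase and more transcript per cell cannot be told apart.

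Adk (target NM_001244850.1, 1827 nt) was the most even of the enzymes under paradoxical feedback. Levels are given in CPM, the depth-scaled count, on TMM-scaled library sizes. Adk ran from 110.7 to 136 CPM over the 7 paradoxical feedback cultures, with a median of 124 CPM. Under negative feedback it ran from 73.5 to 146 CPM, with a median of 139.7 CPM. The uncontrolled cultures 1 to 4 had 56.3, 74.1, 45.9 and 67.8 CPM, and the parental library had 104 CPM. Every paradoxical feedback culture thus lay above every uncontrolled culture and above the parental library. Under negative feedback, cultures 1 and 2 had 80.2 and 73.5 CPM, close to the highest uncontrolled culture, and cultures 3 to 7 had 135 to 146 CPM. The coefficient of variation of Adk was 7.87% under paradoxical feedback, 25.8% under negative feedback and 20.5% in uncontrolled cultures.

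Adss2 (target NM_001292059.1, 1493 nt) separated the negative feedback cultures most widely. It ran from 44.9 to 113 CPM under paradoxical feedback, with a median of 69.2 CPM, and from 25.8 to 142 CPM under negative feedback, with a median of 117 CPM. The uncontrolled cultures 1 to 4 had 23.7, 25.7, 22.3 and 28.8 CPM, and the parental library had 42.1 CPM. Paradoxical feedback cultures again lay above all uncontrolled ones, and the lowest of them, culture 5, was near the parental level. Negative feedback cultures 1 and 2, at 25.8 and 26.6 CPM, lay inside the uncontrolled range, while cultures 3 to 7 had 108 to 142 CPM. The mean of cultures 3 to 7 was 4.69 times that of cultures 1 and 2 for Adss2, 2.38 times for Tk1 and 1.84 times for Adk. These sets were recognised from the expression data, so the ratios are a description and were not tested.

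Tk1 (target NM_001244494.2, 1251 nt) varied most of the enzymes, in CPM, under paradoxical feedback and in uncontrolled cultures. Its estimated counts were not whole, which means that the quantifier divided some reads between this target and similar ones, whereas those of Adk and Adss2 were whole in every library. Under paradoxical feedback Tk1 ran from 43.7 CPM in culture 4 to 173 CPM in culture 5, with a median of 90.1 CPM. Under negative feedback it ran from 28.7 to 108 CPM, with a median of 65.1 CPM. The uncontrolled cultures 1 to 4 had 19.2, 21.2, 52.4 and 38.6 CPM, and the parental library had 72.4 CPM. Paradoxical feedback and uncontrolled cultures overlapped, because paradoxical feedback culture 4 lay below uncontrolled culture 3. The coefficient of variation of Tk1 was 43.2% under paradoxical feedback, 41.8% under negative feedback and 47.7% in uncontrolled cultures, and that of Adss2 was 29.3, 50.7 and 11.3% in the same order. In TPM under paradoxical feedback the coefficients were close, at 31.4% for Tk1 and 33.1% for Adss2.

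**Figure D1:**
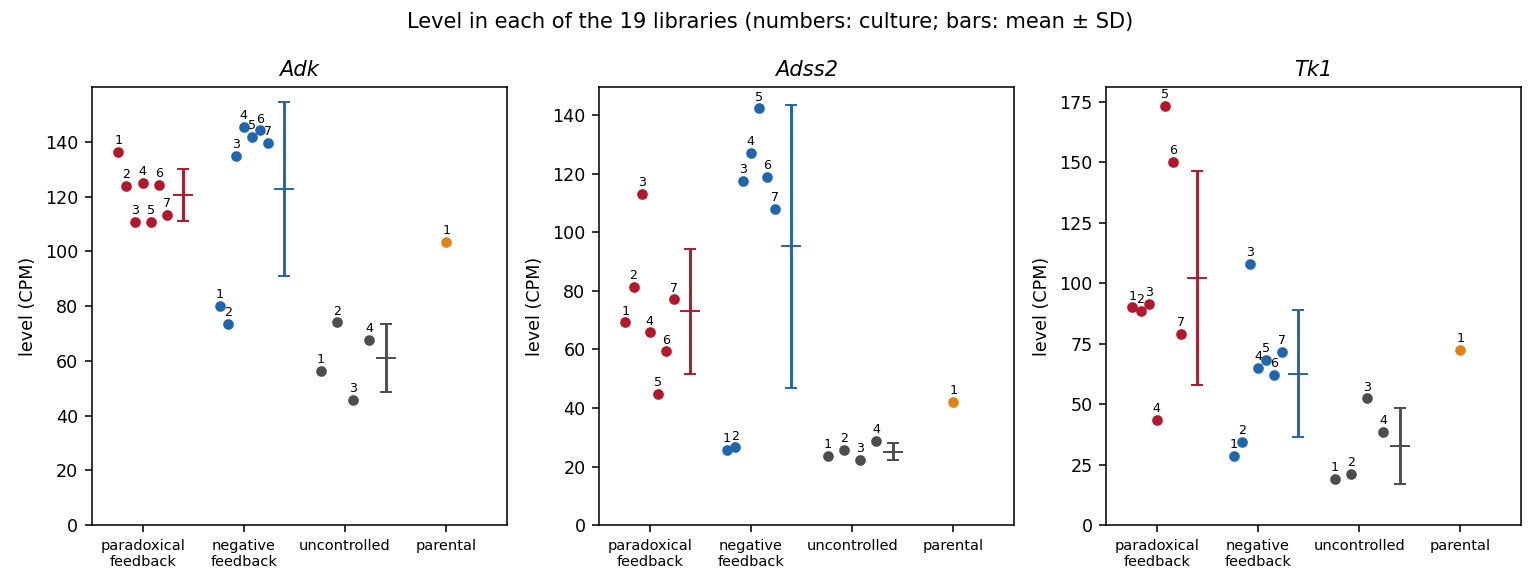
Level of Adk, Adss2 and Tk1 (vertical axes, CPM) in each library, by condition (horizontal axes), with culture numbers beside the points and the mean ± SD of each condition as bars. For Adk and Adss2 all 7 paradoxical feedback points lie above all 4 uncontrolled points, and negative feedback cultures 1 and 2 lie apart from cultures 3 to 7.

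Paradoxical feedback was compared with uncontrolled growth to see how cultures labelled with that circuit differed from free-growing ones. All 3 enzymes rose. Tk1 averaged 102 ± 44.3 CPM under paradoxical feedback (SD over 7 cultures) and 32.9 ± 15.7 CPM in uncontrolled cultures (SD over 4 cultures), which is 1.64 ± 0.41 (SE) on the log2 scale with an adjusted p of 0.0296 by edgeR. Adss2 averaged 73.0 ± 21.4 CPM under paradoxical feedback (SD over 7 cultures) and 25.1 ± 2.83 CPM in uncontrolled cultures (SD over 4 cultures), which is 1.54 ± 0.42 on the log2 scale (edgeR adjusted p = 0.0407). Adk averaged 121 ± 9.49 CPM under paradoxical feedback (SD over 7 cultures) and 61.0 ± 12.5 CPM in uncontrolled cultures (SD over 4 cultures), which is 0.98 ± 0.20 on the log2 scale (edgeR adjusted p = 0.0147). The test is edgeR's quasi-likelihood test with Benjamini-Hochberg adjustment over 28555 targets, and a target is called at an adjusted p under 0.05.

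The background of that comparison was 4.93% of all tested targets called higher, and 19.7% of the 284 tested named genes. With library totals alone as the scaling, 905 targets were called higher and 521 lower, against 1408 higher and 427 lower with TMM. The balance stayed towards higher with DESeq2, at 3094 higher and 1729 lower. It turned to 1082 higher and 1507 lower with limma-voom and to 953 higher and 1240 lower with limma on log2 TPM. Groups that did not overlap, with paradoxical feedback higher, were seen for Adk and Adss2 and for 7.94% of all tested targets. The median log2 fold change was 0.02 over all targets and 0.55 over named genes, so each enzyme lay above the typical named gene. With the share of counts on short targets as a covariate, the log2 fold change of Adss2 was 0.67 ± 0.16 (edgeR adjusted p = 0.0269), that of Adk 0.70 ± 0.14 (0.0143) and that of Tk1 1.44 ± 0.43 (0.0720). The part of RNA quality or fragment length in these differences was not tested.

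In the fit of all conditions together the calls depended on single libraries, and so did the number of all targets called. That number was 1835 with every library and 127 to 3204 with 1 library left out. It was 127, 150, 644 and 546 without uncontrolled culture 1, 2, 3 and 4. The Adk call was lost without uncontrolled culture 1 (0.94, edgeR adjusted p = 0.0598). The Tk1 call was lost without uncontrolled culture 1, 2 or 4 or paradoxical feedback culture 5 or 6, where it was at 1.45 to 1.72 with adjusted p of 0.0506 to 0.102 by edgeR. The Adss2 call was lost without any 1 uncontrolled culture, negative feedback culture 7 or paradoxical feedback culture 1, 2, 3, 6 or 7, at 1.40 to 1.61 and adjusted p of 0.0513 to 0.111 by edgeR. The Adss2 call was also lost with library totals alone as the scaling (1.43, edgeR adjusted p = 0.0580), with limma-voom (1.50, adjusted p = 0.101) and with limma on log2 TPM (1.50, adjusted p = 0.0811). In a fit of the compared groups alone all 3 enzymes were called, where 13.0% of all tested targets were called higher. The edgeR adjusted p there was 0.000858 for Adk, 0.00118 for Adss2 and 0.0144 for Tk1.

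Negative feedback was compared with uncontrolled growth to ask the same of cultures labelled with the negative feedback circuit. Adss2 and Adk rose in the mean, and the means joined unlike cultures. Adss2 averaged 95.1 ± 48.2 CPM under negative feedback (SD over 7 cultures) and 25.1 ± 2.83 CPM in uncontrolled cultures (SD over 4 cultures), which is 1.92 ± 0.43 on the log2 scale (edgeR adjusted p = 0.0236). Adk averaged 123 ± 31.7 CPM under negative feedback (SD over 7 cultures) and 61.0 ± 12.5 CPM in uncontrolled cultures (SD over 4 cultures), which is 1.01 ± 0.20 on the log2 scale (edgeR adjusted p = 0.0236). Tk1 averaged 62.6 ± 26.2 CPM under negative feedback (SD over 7 cultures) and 32.9 ± 15.7 CPM in uncontrolled cultures (SD over 4 cultures). Its log2 fold change of 0.93 ± 0.40 did not pass, with an edgeR adjusted p of 0.129.

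In that comparison 8.65% of all tested targets and 28.2% of tested named genes were called higher, so 2 called enzymes of 3 stand against a high background. The balance of calls was 2470 higher and 317 lower with edgeR. It stayed towards higher with DESeq2, at 4880 higher and 1556 lower, and with limma on log2 TPM, at 4020 higher and 2285 lower. It turned with limma-voom, to 1637 higher and 3402 lower. All 3 enzymes overlapped between the groups, whereas 1.67% of targets were higher without overlap. The result rested on negative feedback cultures 3 to 7. Without them the log2 fold changes were 0.06 for Adss2, 0.33 for Adk and -0.06 for Tk1, with 2 negative feedback cultures left. Without cultures 1 and 2 instead, the values were 2.27 for Adss2, 1.19 for Adk and 1.17 for Tk1. These values are a description, since leaving out the low or the high cultures fixes the direction in which they move. Adss2 and Adk also lost their calls without any 1 uncontrolled culture (edgeR adjusted p of 0.0525 to 0.0774) and in the fit of the compared groups alone (0.0798 for each). Nearly all targets lost theirs in these fits. The number called was 7 to 15 without an uncontrolled culture and 10 in the compared groups alone, against 2787 in the main fit. With the short-target share as a covariate Adss2 and Adk were at 0.36 ± 0.18 and 0.51 ± 0.15, and neither passed (edgeR adjusted p = 0.749 and 0.539). Of all 28555 tested targets 6 were called there.

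Paradoxical feedback was also set directly against negative feedback, which asked whether the circuits differed from each other. None of the 3 enzymes was called by edgeR, while Tk1 had an unadjusted p under 0.05, and DESeq2 and limma-voom called none either. Tk1 was at 0.71 ± 0.33 (edgeR adjusted p = 0.276), Adss2 at -0.38 ± 0.34 (0.656) and Adk at -0.03 ± 0.16 (0.974) on the log2 scale. Of all tested targets 0.270% were called in either direction, and missing the threshold does not show equal levels. The sign of the fold change depended on which negative feedback cultures were used for Adss2 and Adk, but not for Tk1. These values are a description with no test, because the expression data themselves set those cultures apart. Adss2 was at 1.49 on the log2 scale against cultures 1 and 2 alone and at -0.74 against cultures 3 to 7 alone. Adk was at 0.66 and -0.22, and Tk1 at 1.70 and 0.45.

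**Figure D2:**
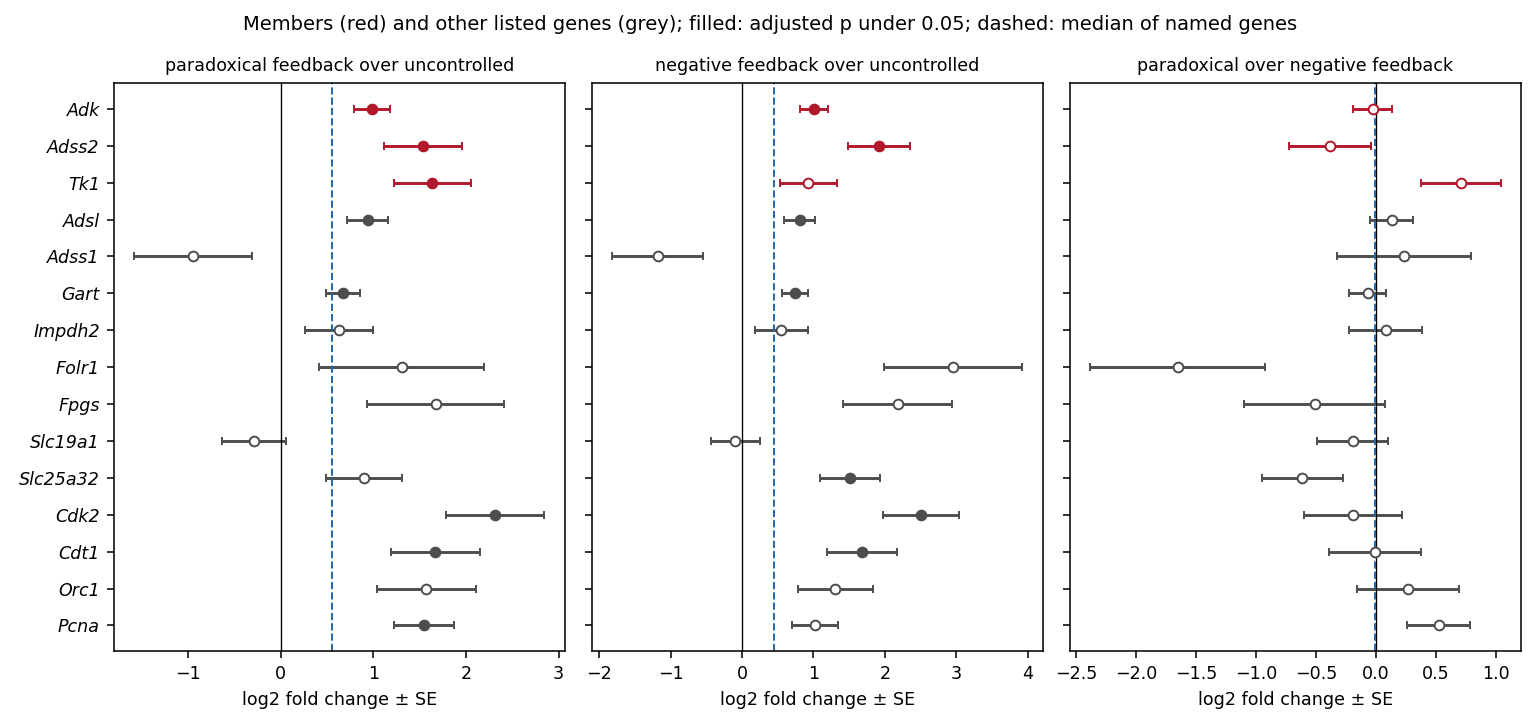
Log2 fold change ± SE by edgeR (horizontal axes) of the 3 enzymes in red and of other listed genes in grey, with filled points for an adjusted p under 0.05, a solid line at 0 and a dashed line at the median of named genes. All 3 enzymes are filled for paradoxical feedback over uncontrolled, Adk and Adss2 for negative feedback over uncontrolled, and none between the feedback conditions.

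The parental library stood between the uncontrolled and the paradoxical feedback cultures for 2 of the enzymes. Adk at 104 CPM and Adss2 at 42.1 CPM in the parental library lay above every uncontrolled culture and below every paradoxical feedback culture. Tk1, at 72.4 CPM in the parental library, also lay above every uncontrolled culture but above paradoxical feedback culture 4 as well. The averaged long-term groups, set against the parental library, gave log2 fold changes of 0.41 ± 0.68 for Adss2, -0.10 ± 0.31 for Adk and -0.28 ± 0.62 for Tk1. None was called by edgeR (adjusted p = 1.00 for each, and 0 at an unadjusted p under 0.05), nor by DESeq2 or limma-voom, and 0.0175% of all tested targets were. With 1 parental library, the fit takes its variation to be that of the cultures.

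Levels per length, in TPM, allow the enzymes to be compared with each other within a library. Tk1 was the highest of the 3 in 6 of 7 paradoxical feedback libraries (5 with Adk second and 1 with Adss2 second), in 1 of 7 negative feedback libraries, in 1 of 4 uncontrolled libraries and in the parental library. Adk was highest in 3 uncontrolled libraries. In TPM, Tk1 averaged 112 ± 35.0 under paradoxical feedback (SD over 7 cultures), 87.5 ± 43.6 under negative feedback (SD over 7 cultures) and 36.3 ± 16.7 in uncontrolled cultures (SD over 4 cultures). Adk averaged 85.6 ± 13.2 TPM under paradoxical feedback (SD over 7 cultures), 106 ± 38.8 TPM under negative feedback (SD over 7 cultures) and 42.2 ± 8.94 TPM in uncontrolled cultures (SD over 4 cultures). The lowest in uncontrolled cultures was Adss2, at 22.3 ± 3.33 TPM (SD over 4 cultures), against 67.0 ± 22.1 TPM under paradoxical feedback and 108 ± 60.7 TPM under negative feedback (SD over 7 cultures each). Ordered by mean TPM, neighbours in each condition with replicates differed by less than the larger of their SDs. Those SDs describe the spread between cultures, whereas the order is read within each library. Adss2 was the lowest in all 4 uncontrolled libraries. There the ratio of Adss2 to Adk was 0.443 to 0.622 and that of Tk1 to Adss2 was 1.02 to 2.95. Under either feedback the order differed between libraries.

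The ratio of Adss2 to Adk in TPM was 0.519 to 1.31 under paradoxical feedback, 0.412 to 1.28 under negative feedback and 0.443 to 0.622 in uncontrolled cultures. In negative feedback cultures 1 and 2 it was 0.412 and 0.463, and in cultures 3 to 7 it was 0.989 to 1.28. The ratio of Tk1 to Adk was 0.561 to 2.51 under paradoxical feedback, 0.576 to 1.28 under negative feedback and 0.461 to 1.83 in uncontrolled cultures. Exact two-sided permutation tests of the log2 ratios were added after the values had been seen, with p-values adjusted over 9 comparisons. None passed. The smallest p was for Tk1 to Adk between paradoxical and negative feedback, a 1.61-fold higher ratio under paradoxical feedback (exact p = 0.0350, adjusted 0.170). Tk1 to Adss2 had a 1.82-fold higher ratio under paradoxical than under negative feedback (exact p = 0.0530, adjusted 0.170). Adss2 to Adk was 1.41-fold higher under paradoxical feedback (exact p = 0.0636) and 1.59-fold higher under negative feedback (exact p = 0.0758) than in uncontrolled cultures, both with an adjusted p of 0.170.

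**Figure D3:**
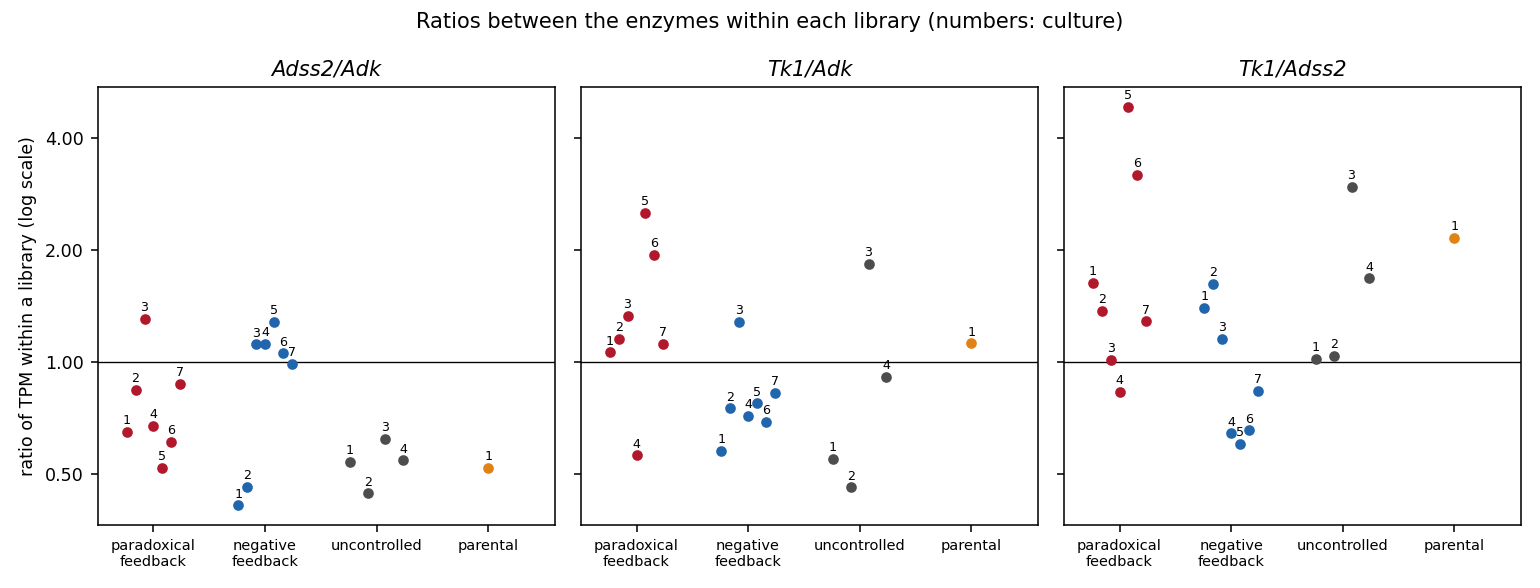
Ratio of TPM values between the enzymes within each library (vertical axes, log scale), by condition (horizontal axes), with culture numbers beside the points and a line at a ratio of 1. The Adss2 to Adk ratio is 0.989 to 1.28 in negative feedback cultures 3 to 7 and 0.443 to 0.622 in uncontrolled cultures, and the Tk1 to Adss2 ratio is highest in paradoxical feedback culture 5, at 4.84.

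Among paradoxical feedback cultures no relation between the enzymes passed a test. Culture 5 had the highest Tk1 (173 CPM) and the lowest Adss2 (44.9 CPM), and culture 6 had the second highest Tk1 (150.2 CPM) and the second lowest Adss2 (59.3 CPM). Culture 3 had the highest Adss2 (113 CPM) with 91.6 CPM of Tk1, and culture 4 had the lowest Tk1 (43.7 CPM) with 65.8 CPM of Adss2. Cultures 5 and 6 also had the largest shares of counts on short targets in that group, 12.4 and 11.4%. Over the 7 cultures Pearson's r was -0.44 between Adss2 and Tk1 (exact p = 0.316), -0.28 between Adk and Tk1 (exact p = 0.534) and -0.10 between Adk and Adss2 (exact p = 0.856). Spearman's rho was -0.39 (exact p = 0.396), -0.39 (exact p = 0.396) and -0.29 (exact p = 0.556) for the same pairs. Over these 3 relations the adjusted permutation p-values were 0.801, 0.801 and 0.856 for r and 0.556 for each rho. Without the 2 cultures farthest from the median of the first gene of each pair, r was -0.25, 0.08 and -0.34.

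Over all 19 libraries the enzymes followed the short-target share to different degrees. As a description across libraries that share conditions, Pearson's r between log2 CPM and that share was -0.95 for Adss2, -0.80 for Adk and -0.43 for Tk1. Adss2 was high in the libraries with the smallest shares, negative feedback cultures 3 to 7, and low in negative feedback cultures 1 and 2 and the uncontrolled cultures, with shares of 12.2 to 14.1%. Tk1 departed from that order in several libraries, among them paradoxical feedback cultures 5 and 6, where it was highest. Paradoxical feedback culture 4 had 43.7 CPM of Tk1 at a share of 9.79%. Uncontrolled culture 3 had 52.4 CPM at 13.3%, and the parental library 72.4 CPM at 11.8%. The 3 targets are themselves longer than 800 nt and are not counted in the share.

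**Figure D4:**
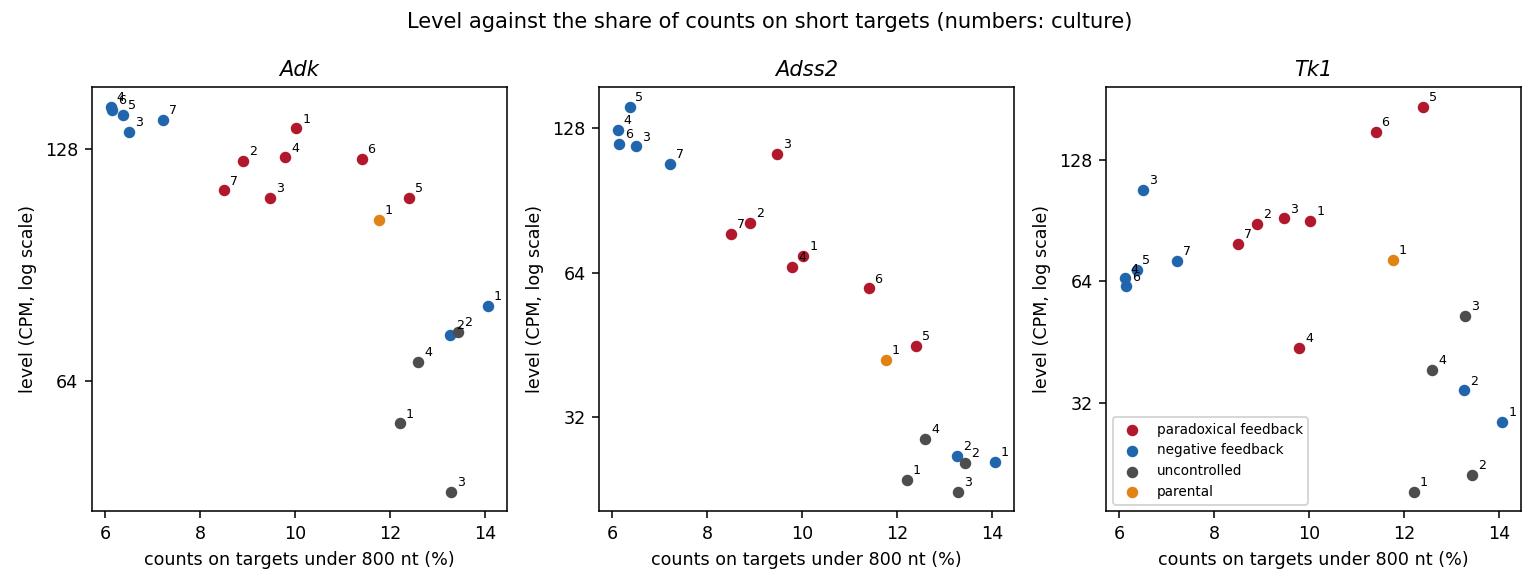
Level of each enzyme (vertical axes, CPM on a log scale) against the share of counts on targets under 800 nt (horizontal axes, %), with 1 numbered point per library and colours for the conditions. Adss2 falls as the share grows over all libraries (r = -0.95), whereas Tk1 is highest in paradoxical feedback cultures 5 and 6, whose shares are 12.4 and 11.4%.

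Other genes of the pathways were taken from 6 lists of 99 symbols covering purine synthesis, purine salvage and breakdown, pyrimidine metabolism, deoxynucleotide supply, folate and one-carbon metabolism, and nucleoside transport. Of the 96 symbols other than the 3 enzymes, 9 matched a target, and all 9 were tested. Under paradoxical feedback 2 of these 9 were called higher and none lower than in uncontrolled cultures, with a median log2 fold change of 0.90. Under negative feedback 3 were called higher and none lower, with a median of 0.78. Of all tested targets 4.93% were called higher under paradoxical and 8.65% under negative feedback. Of tested named genes the shares were 19.7 and 28.2%, so the 9 genes are not set apart from named genes by these counts. Both counts of called genes moved with the unlike negative feedback cultures. Without negative feedback cultures 1 and 2, 5 of 9 were called higher under paradoxical feedback, where 12.3% of all tested targets were, and 6 higher and 1 (Adss1) lower under negative feedback, where 20.6% of all were higher. Without cultures 3 to 7, 8 were tested, of which 3 were called higher under paradoxical feedback, against 10.4% of all, and 0 under negative feedback, against 0.0147% of all. As these cultures were set apart by the expression data, the counts without them are a description. The share of named genes called in those fits was not counted. The medians over all named genes were 0.55 under paradoxical and 0.44 under negative feedback. Between the feedback conditions none of the 9 was called by edgeR, where 0.270% of all tested targets were.

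Adsl, the lyase that acts after Adss2, had 126 ± 18.6 CPM under paradoxical feedback (SD over 7 cultures), 115 ± 34.2 CPM under negative feedback (SD over 7 cultures) and 65.5 ± 8.49 CPM in uncontrolled cultures (SD over 4 cultures). Its log2 fold changes, with shared reads, were 0.94 ± 0.22 for paradoxical feedback (edgeR adjusted p = 0.0226) and 0.81 ± 0.22 for negative feedback (0.0314). Gart, which carries out several steps of purine ring synthesis, including a step that uses a folate cofactor, rose by 0.67 ± 0.18 under paradoxical feedback (edgeR adjusted p = 0.0394) and by 0.74 ± 0.18 under negative feedback (0.0253). Impdh2, which leads IMP towards GMP and has shared reads, did not pass in either comparison, at 0.63 ± 0.37 (0.289) and 0.55 ± 0.37 (0.310). Adss1, the synthase isoform known from muscle, was near the detection limit and did not pass in either, at -0.94 ± 0.64 (0.372) and -1.18 ± 0.64 (0.211). Its level was 1.38 ± 1.39 CPM under paradoxical feedback, 1.17 ± 0.728 CPM under negative feedback (SD over 7 cultures each) and 2.67 ± 1.38 CPM in uncontrolled cultures (SD over 4 cultures).

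Of 5 folate genes tested, none was called under paradoxical feedback and 1 under negative feedback. Of tested named genes 19.7 and 28.2% were called higher, and of all tested targets 4.93 and 8.65%. The called folate gene was Slc25a32, a mitochondrial folate carrier with shared reads, at 9.57 ± 4.39 CPM under negative feedback (SD over 7 cultures) against 3.35 ± 0.897 CPM in uncontrolled cultures (SD over 4 cultures), which is 1.51 ± 0.42 on the log2 scale (edgeR adjusted p = 0.0342). Fpgs, which adds glutamates to folates and has shared reads, was at 1.67 ± 0.74 under paradoxical feedback (edgeR adjusted p = 0.166) and 2.18 ± 0.76 under negative feedback (0.0730). The reduced folate carrier Slc19a1, with shared reads, was at -0.29 ± 0.34 (0.649) and -0.09 ± 0.34 (0.875), and the folate receptor Folr1 was at most 2.80 CPM in any library.

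Tk1 belongs to the genes of S phase, and 5 of 22 listed S-phase symbols were tested beside it. In the comparison of paradoxical feedback with uncontrolled cultures 3 of the 5 were called higher, namely Cdk2, Cdt1 and Pcna. Under negative feedback 2 were, Cdk2 and Cdt1. The shares called higher were 4.93 and 8.65% of all tested targets, and 19.7 and 28.2% of tested named genes. Cdc6, among the 5, was at 0 in both groups of the first comparison and could not be called there. Without negative feedback cultures 3 to 7, the 4 that remained in the test were all called higher under paradoxical feedback and none under negative feedback, and without cultures 1 and 2 the same 4 genes were called in both comparisons, again as a description against the shares of all targets given above for those fits. The list's median log2 fold change was 1.57 and 1.68, and with Cdc6, which was at 0 in all uncontrolled cultures, left out of the first and set at its bound in the second, 1.62 and 1.68. Pcna, the sliding clamp of DNA polymerase, was at 259 ± 70.4 CPM under paradoxical feedback (SD over 7 cultures), 180.5 ± 69.0 CPM under negative feedback (SD over 7 cultures) and 88.8 ± 23.6 CPM in uncontrolled cultures (SD over 4 cultures). Like Tk1 it was called under paradoxical feedback (1.55 ± 0.33, edgeR adjusted p = 0.0168) and missed under negative feedback (1.02 ± 0.32, 0.0506). Orc1, a subunit of the origin recognition complex with shared reads, did not pass in either, at 1.57 ± 0.53 (0.0791) and 1.30 ± 0.52 (0.109). The Cdc6 target, with shared reads, was at 0 in every paradoxical feedback culture, every uncontrolled culture and the parental library, and at up to 6.66 CPM under negative feedback.

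The named genes whose levels most resembled each enzyme over the 19 libraries were taken by Pearson's r of log2 CPM among 283 others, as a description in which the points share conditions and depth. Tk1 resembled Pcna (r = 0.94) and the alpha-tubulin Tuba1b, with shared reads (0.92). After the mean of each condition was subtracted, which leaves the parental point at 0, both were still among the 3 most similar, at 0.87 for Tuba1b and 0.87 for Pcna. Hspa5, a chaperone of the endoplasmic reticulum, resembled Tk1 least over the libraries (-0.79). After subtraction it was at -0.63 and ranked 275 of 283. Adss2 resembled the G protein subunit Gna11, with shared reads (0.98), Pdha1, a subunit of pyruvate dehydrogenase (0.98), and Selenoi, a phospholipid-synthesis enzyme with shared reads (0.97), which were at 0.97, 0.97 and 0.95 after subtraction. The least similar was Fau, with shared reads, which encodes a ribosomal protein fused to a ubiquitin-like protein (-0.97). Adk resembled Apex1, a DNA repair endonuclease with shared reads (0.94), Pea15 (0.93) and Cdk2, a kinase that drives entry into S phase (0.92), and least the pro-apoptotic gene Bax (-0.88). After subtraction Apex1, Pea15 and Cdk2 were at 0.85, 0.84 and 0.83 and ranked 10, 13 and 20 among the 283. Bax was then at -0.86. For all 3 enzymes the subtraction leaves the difference between negative feedback cultures 1 and 2 and cultures 3 to 7 in these values. The enzymes also followed the short-target share, with r of -0.95 for Adss2, -0.80 for Adk and -0.43 for Tk1. How far the correlations rest on either was not tested. Among the enzymes themselves r was 0.90 between Adk and Adss2, 0.64 between Adk and Tk1 and 0.60 between Adss2 and Tk1.

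Gna11, the gene nearest to Adss2, had 19.1 ± 5.08 CPM under paradoxical feedback (SD over 7 cultures), 30.2 ± 18.5 CPM under negative feedback (SD over 7 cultures) and 3.44 ± 0.321 CPM in uncontrolled cultures (SD over 4 cultures). Fau ran the other way, with 37.6 ± 20.5 CPM under paradoxical feedback (SD over 7 cultures), 54.6 ± 72.8 CPM under negative feedback (SD over 7 cultures) and 142 ± 28.4 CPM in uncontrolled cultures (SD over 4 cultures). Bax, the gene least like Adk, had 66.1 ± 10.3 CPM under paradoxical feedback (SD over 7 cultures), 65.6 ± 46.8 CPM under negative feedback (SD over 7 cultures) and 120.2 ± 12.7 CPM in uncontrolled cultures (SD over 4 cultures). These genes were chosen for their likeness, so their levels are a description and were not tested.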

How the data were processed

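PolyA RNA was sequenced in 19 libraries. Trim Galore and kallisto are the tools listed in the submitters' processing notes. Versions, genome build and annotation were not given in the sources used here. Per the file headers, each file gives 46718 transcript targets with estimated counts and TPM. The authors' deposited estimated counts need not be whole, since reads matching several targets are divided, and the authors' deposited TPM values scale them by effective length. Symbols came from the RefSeq gene table of CriGri-PICRH-1.0, which matched 528 targets by accession, 334 of them protein coding. Counts stayed per target, and no sequences were used.

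Estimated counts were rounded, filtered with filterByExpr (28555 targets, 284 named), scaled by TMM and passed to edgeR 4.0.16 (R 4.3.3), with 1 coefficient per group and all 19 libraries. The quasi-likelihood p-values were Benjamini-Hochberg adjusted over all tested targets, and the fit was tested on simulated data. Log2 CPM used a prior count of 2. Counts were called whole within 1e-06. Alternatives used DESeq2 1.42.0, limma 3.58.1 (voom, or log2 TPM with a pseudocount of 0.5), other scalings and filters, covariates and left-out libraries. A removal of the trend over target length, and the list counts without sets of negative feedback cultures, were chosen after seeing the data.

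The genes named are the 3 enzymes, all matched members of the lists, and for each enzyme the 3 most and the 1 least similar named genes. Some of these results are not reported here. The enzymes, lists and left-out sets were chosen with earlier results of these data known.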

Additional observations from a re-analysis of the deposited data

How the results depend on the processing

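All values here are log2 fold changes with the adjusted p in brackets, or numbers of targets called, and the cause of each shift was not tested unless fewer libraries or targets explain it by construction. The counts in the main analysis were 1835 for paradoxical feedback against uncontrolled, 2787 for negative feedback against uncontrolled, 77 for paradoxical against negative feedback and 5 for the long-term groups against the parental library.

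DESeq2 size factors gave 11 calls between the feedback conditions, library totals alone 42, no filter 2, and a minimum of 10 counts in 7 libraries 135. With library totals alone, Adss2 in paradoxical feedback against uncontrolled was at 1.43 (edgeR adjusted p = 0.0580). DESeq2 called 4823, 6436, 1794 and 298 targets in the 4 comparisons in the order above. With limma-voom Adss2 was at 1.50 (adjusted p = 0.101) in paradoxical feedback against uncontrolled and Adk at 0.010 between the feedback conditions, with 5039, 297 and 100 calls in the last 3 comparisons. With limma on log2 TPM Adss2 was at 1.50 (adjusted p = 0.0811) and Tk1 in negative feedback against uncontrolled at 1.18 (adjusted p = 0.0491), with 6305, 19 and 50 calls in the last 3.

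With the short-target share as a covariate, Tk1 in paradoxical feedback against uncontrolled was at 1.44, Adk and Adss2 in negative feedback against uncontrolled at 0.51 and 0.36, Adk and Adss2 between the feedback conditions at 0.18 and 0.32, and Adss2 in the long-term groups against the parental library at -0.064. The calls were 1145, 6, 697 and 12. Removing the length trend gave 0 calls between the feedback conditions and 8 against the parental library. In fits of the compared groups alone, the first 3 comparisons gave 4956, 10 and 0 calls, and Adk and Adss2 in negative feedback against uncontrolled were at 0.99 and 1.90.

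Without negative feedback cultures 3 to 7 there were 4926, 13, 2454 and 8 calls. Tk1, Adk and Adss2 in negative feedback against uncontrolled were then at -0.056, 0.33 and 0.062, Adk and Adss2 between the feedback conditions at 0.66 and 1.49, and Adss2 against the parental library at -0.21. Without cultures 1 and 2 there were 5675, 11460, 5937 and 51 calls, Tk1 in negative feedback against uncontrolled was at 1.17, and Adss2 between the feedback conditions was at -0.74.

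The labels do not say whether replicate numbers pair the cultures. Over all tested targets, 1 of 15 same-numbered pairs had a correlation of deviations from the group means over 0.1 (range -0.16 to 0.11). Such a check cannot exclude a shared batch or start, since most targets need not carry it. With a replicate block, Tk1, Adk and Adss2 in paradoxical feedback against uncontrolled were at 1.49, 0.93 and 1.42 (edgeR adjusted p = 0.130, 0.132 and 0.210), Adk and Adss2 in negative feedback against uncontrolled at 0.93 and 1.66 (0.205 each), and Adss2 against the parental library at -0.10. The block left 3, 4, 0 and 0 calls.

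Leaving out 1 library at a time gave 127 to 3204, 7 to 6938, 0 to 989 and 5 to 11 calls. In paradoxical feedback against uncontrolled Tk1 ran from 1.45 to 1.96, Adk from 0.87 to 1.09 and Adss2 from 1.40 to 1.62. In negative feedback against uncontrolled Adk ran from 0.89 to 1.12, Adss2 from 1.80 to 2.09 and Tk1 from 0.74 to 1.25. Between the feedback conditions Adk ran from -0.12 to 0.02, and turned sign without negative feedback culture 4 (0.018), 5 (0.011), 6 (0.016) or 7 (0.0065), Adss2 ran from -0.55 to -0.26 and Tk1 from 0.53 to 0.89. Without the parental library the comparison with it could not be made. Depth was not limiting for the 3 enzymes, with 224 or more counts in every library. For Tk1 the division of shared reads adds an error the files do not give.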
